A study of Homo sapiens with 17 samples.

Results

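The genes described here are 10 genes of the nuclear lamina and of chromatin architecture. They are the lamins LMNA, LMNB1 and LMNB2, and LBR and TMPO, whose proteins are lamina-associated. With them are the high-mobility-group genes HMGB1, HMGB2, HMGA1 and HMGA2, and CBX5. The 10 genes were taken by symbol from a table of 9699 transcripts with 1 row per gene, and all 10 were in it. RNA-Seq and Ribo-Seq, the sequencing of ribosome-protected mRNA fragments, had been applied to BJ cells, a human fibroblast line immortalized with telomerase (hTERT). The proliferating (C) and quiescent (Q) cells carried no further agent in the labels, and quiescence was brought about by removing serum. The pre-senescent (preS) and senescent (S) cells expressed a tamoxifen-inducible RASG12V oncogene and received 4-OHT-Tamoxifen, the former over 5 days and the latter over 14. The cells labelled transformed (Tr) expressed RASG12V from a retrovirus together with SV40 small T and stable knockdowns, among them that of p16INK4A. All groups came from 1 cell line, and the labels do not say whether the proliferating and quiescent cells carried the inducible construct.

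The nuclear lamina is a meshwork of intermediate filaments under the inner nuclear membrane. A-type lamins come from LMNA, and B-type lamins from LMNB1 and LMNB2. LBR, a membrane protein that binds B-type lamins, and TMPO, which encodes the LAP2 proteins, tie the lamina to chromatin. HMGB proteins bend DNA, HMGA proteins bind the minor groove of AT-rich DNA, and CBX5 encodes HP1 alpha, which binds methylated histone H3 in heterochromatin. Loss of lamin B1 is widely used as a marker of senescence in fibroblasts, and HMGA proteins have been described in the heterochromatin foci of senescent cells.

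Each condition had 1 column for RNA and 1 for Ribo-Seq, in FPKM, a fragment count scaled to transcript length and to library size. Of the 12 columns, 5 were the authors' pooled value over 2 libraries and 7 held 1 library, so no replicate spread, standard error or p-value could be given, and read depth is unknown from FPKM alone. Quiescent and pre-senescent cells were compared with the proliferating cells of sequencing run 1, and senescent and transformed cells with those of run 2. A difference was called where it passed 7/4 (about 1.8) local standard deviations (SDs). The SD was the root mean square of the log2 differences of the transcript and its 500 neighbours in level, with no mean subtracted. This yardstick measures spread among transcripts in the same pair of columns, not between cultures. The authors had set FPKM below 1 to 1, and a value of 1.00 is therefore a floor.

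Among the libraries as a whole, all 10 fibroblast markers were above the floor in every column, with a summed RNA level of 5048 to 7577 FPKM. In RNA 7 of the 10 were called lower in senescent than in run 2 proliferating cells, where 4.79% of all transcripts were. That control was itself high for 5 of the 10. COL1A1, COL1A2, COL3A1, LUM and DCN were called higher in run 2 than in run 1 proliferating cells. The keratins KRT8, KRT18 and KRT19, which mark epithelium, summed to 105 to 313 FPKM. Of 9 cycling markers in the table all 9 were called lower in senescent cells, with a summed RNA level of 44.6 FPKM against 452 in run 2 proliferating cells, and 3 of them (MKI67, CDK1 and AURKB) were at the floor. All 9 were also called lower in quiescent cells (291 FPKM against 676 in run 1 proliferating cells) and 4 of 9 in pre-senescent cells (427 FPKM). No cycling marker was called lower in transformed cells (392 FPKM). Of 9 senescence markers 6 were called higher in RNA in senescent cells, and of 8 compared in pre-senescent cells 5 were. In transformed cells 5 of 9 were called higher, where 2.96% of all transcripts were. These were IL6, IL1B, IL8, MMP1 and MMP3. GDF15 RNA there stood at a log2 difference of 0.01 and CDKN1A RNA at -1.10, neither called. In Ribo-Seq CDKN1A was called lower in transformed cells (-1.37). CDKN2A, the gene of p16INK4A, was at 12.64 FPKM RNA in transformed cells, between 6.75 FPKM in run 2 and 17.19 FPKM in run 1 proliferating cells. The RNA difference from run 2 (log2 0.91) was not called, and the Ribo-Seq level was 5.51 FPKM against 8.92 in that control. HRAS was at 311.51 FPKM RNA in the library labelled transformed and at 1253.69 to 2415.28 FPKM in all the others; the labels do not name the RAS gene used, and the name transformed is kept here as the label's. The condition fields of the Ribo-Seq samples titled S and C3 were crossed with their titles. The titles were followed, and of 652 transcripts called in RNA between senescent and proliferating cells 640 (98.2%) had a Ribo-Seq difference of the same sign.

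Promoter windows are shown for 4 of the genes because LMNB1, TMPO and HMGB1 were lower together in senescent cells while LMNA was not called. The sequences come from RefSeq (GRCh38.p14) and run 5′ to 3′ on the gene's strand, from 250 bases before the start site to 50 after. A table of such windows matched 8 of the 10 genes with 17 windows. Capitals mark matches on either strand to 3 motifs of cell-cycle promoters: the CHR (TTTGAA or TTCGAA), the CCAAT box (CCAAT) and the E2F core (TTCCCGC or TTTNNCGC). LMNB1 (chr5:126776373-126776672, plus strand) had none of these letters in its upstream window. Its second window, chr5:126776886-126777185, held a CCAAT box on the opposite strand 138 to 134 bases before that start. TMPO (chr12:98515323-98515622, plus strand) had 2 CCAAT boxes, HMGB1 (chr13:30465887-30466186, minus strand) had 3, and LMNA (chr1:156082323-156082622, plus strand) had 1 CCAAT box and an E2F core in which both spellings overlap.
LMNB1: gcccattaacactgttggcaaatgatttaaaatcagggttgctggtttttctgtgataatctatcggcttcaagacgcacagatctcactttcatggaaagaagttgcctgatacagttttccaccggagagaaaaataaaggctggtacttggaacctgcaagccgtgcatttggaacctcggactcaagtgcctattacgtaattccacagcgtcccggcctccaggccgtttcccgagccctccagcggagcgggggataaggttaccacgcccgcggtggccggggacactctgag
TMPO: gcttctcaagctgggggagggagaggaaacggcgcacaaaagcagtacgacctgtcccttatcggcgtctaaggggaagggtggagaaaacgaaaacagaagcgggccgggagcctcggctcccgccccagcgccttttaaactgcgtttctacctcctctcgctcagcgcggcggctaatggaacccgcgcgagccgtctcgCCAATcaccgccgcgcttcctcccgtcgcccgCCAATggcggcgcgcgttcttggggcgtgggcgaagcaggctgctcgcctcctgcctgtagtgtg
HMGB1: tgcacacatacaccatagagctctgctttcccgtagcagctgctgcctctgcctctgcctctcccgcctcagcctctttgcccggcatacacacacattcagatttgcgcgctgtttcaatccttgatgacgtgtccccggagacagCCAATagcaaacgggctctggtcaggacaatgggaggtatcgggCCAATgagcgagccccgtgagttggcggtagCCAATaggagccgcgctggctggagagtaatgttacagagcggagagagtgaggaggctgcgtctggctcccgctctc
LMNA: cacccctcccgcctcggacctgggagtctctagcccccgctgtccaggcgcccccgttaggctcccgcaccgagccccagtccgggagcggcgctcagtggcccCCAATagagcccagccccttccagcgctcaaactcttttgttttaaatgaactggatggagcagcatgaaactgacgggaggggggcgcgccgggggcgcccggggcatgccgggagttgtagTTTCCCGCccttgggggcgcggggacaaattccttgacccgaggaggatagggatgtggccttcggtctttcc
The windows of HMGB1 and LMNA are 1 of 3 listed for each gene, and the HMGB1 window was shown for its 3 boxes, chosen after they were seen. The most upstream HMGB1 window held no motif and the most downstream one a CHR and a CCAAT box, while the other LMNA windows held none. LMNB2, CBX5 and HMGB2 were called lower in senescent RNA too and are not shown. The LMNB2 window held a CHR, and each CBX5 window held a CCAAT box, 1 of them with an E2F core. HMGB2 and HMGA2 had no window. In TMPO the CCAAT boxes began 47 and 15 bases before the start, and in HMGB1 they began 103, 59 and 28 bases before it. Over 10719 windows of genes in the expression table, 34.8% held a CCAAT box, 16.8% an E2F core and 11.7% a CHR. These are matches of letters, and LMNA held a CCAAT box and an E2F core too.

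LMNA was the most abundant lamin in every column and did not pass the cut-off in any comparison. LMNA RNA was 375.88 FPKM in run 1 proliferating, 407.55 in quiescent and 353.2 in pre-senescent cells, and 381.58 in run 2 proliferating, 300.53 in senescent and 377.07 in transformed cells. These levels stood between the 97.8 and 98.8 percentile of all transcripts. Its Ribo-Seq level, in the same order, was 1336.62, 1790.73 and 1167.7 FPKM in run 1 and 874.23, 733.53 and 844.22 FPKM in run 2. The senescent value was 1.27-fold below its control in RNA and 1.19-fold below it in Ribo-Seq. The table has 1 transcript per gene (ENST00000368300 for LMNA), so lamin A and lamin C, which are spliced from the same gene, were not told apart.

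LMNB1 (ENST00000261366) had one of the lowest levels of all transcripts relative to control in senescent cells. Its RNA was 58.33 FPKM in run 1 proliferating, 26.0 in quiescent and 25.89 in pre-senescent cells, and 32.27 in run 2 proliferating, 1.00 in senescent and 24.85 in transformed cells. Senescent cells were at the floor, at least 32.3-fold lower than their control. In Ribo-Seq the levels were 216.29, 94.51 and 88.01 FPKM in run 1 and 88.11, 1.28 and 74.16 FPKM in run 2. The Ribo-Seq level in senescent cells was thus 68.8-fold below its control, with a value just above the floor. Of 9560 transcripts compared in RNA the difference ranked 22 from the lowest, and of 9544 in Ribo-Seq it ranked 4 from the lowest. In bulk samples, fewer cells that express a gene and less RNA per cell cannot be told apart.

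The decrease of LMNB1 in quiescent and pre-senescent cells depended on which proliferating culture was the control. Against run 1 it was called in RNA in both conditions (2.24-fold and 2.25-fold lower) and in Ribo-Seq in pre-senescent cells (2.46-fold lower). The run 2 control, at 32.27 FPKM in RNA and 88.11 FPKM in Ribo-Seq, was itself close to these levels. Against it the log2 differences were -0.31 and -0.32 in RNA and 0.10 and -0.00 in Ribo-Seq, and none was called. The senescent level was called lower against either control, with log2 differences of -5.01 and -5.87 in RNA, both bounds because the senescent value was at the floor, and of -6.11 and -7.40 in Ribo-Seq.

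LMNB2 (ENST00000325327), the other B-type lamin, fell less far in senescent cells. Its RNA was 116 FPKM in run 1 proliferating, 61.44 in quiescent and 70.96 in pre-senescent cells, and 75.45 in run 2 proliferating, 22.47 in senescent and 50 in transformed cells. The Ribo-Seq levels were 196.21, 125.84 and 118.18 FPKM in run 1 and 80.0, 19.72 and 55.12 FPKM in run 2. In senescent cells it was 3.36-fold lower in RNA and 4.06-fold lower in Ribo-Seq, both called. It was also called lower in RNA in pre-senescent cells (1.63-fold), but the log2 difference was -0.09 against the other run's control. LMNB2 was the only one of the 10 genes called between both proliferating controls, 2.45-fold lower in run 2 in Ribo-Seq, where 2.80% of all transcripts were called lower. LMNB1 was 2.45-fold lower in that comparison too. Its log2 difference of -1.30 was not called, at the edge of a cut-off of 1.30.

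As a share of the summed lamin FPKM in RNA, LMNA made up 68.3% in run 1 proliferating, 82.3% in quiescent and 78.5% in pre-senescent cells. In run 2 it made up 78.0% in proliferating, 92.8% in senescent and 83.4% in transformed cells. In Ribo-Seq the LMNA share was 83.9% in run 2 proliferating, 97.2% in senescent and 86.7% in transformed cells. The LMNB1 share in Ribo-Seq was 8.45%, 0.170% and 7.62% in these 3 columns. The senescent column thus had the highest LMNA share in both layers, with LMNA itself at about the control level and both B-type lamins lower.

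**Figure D1:**
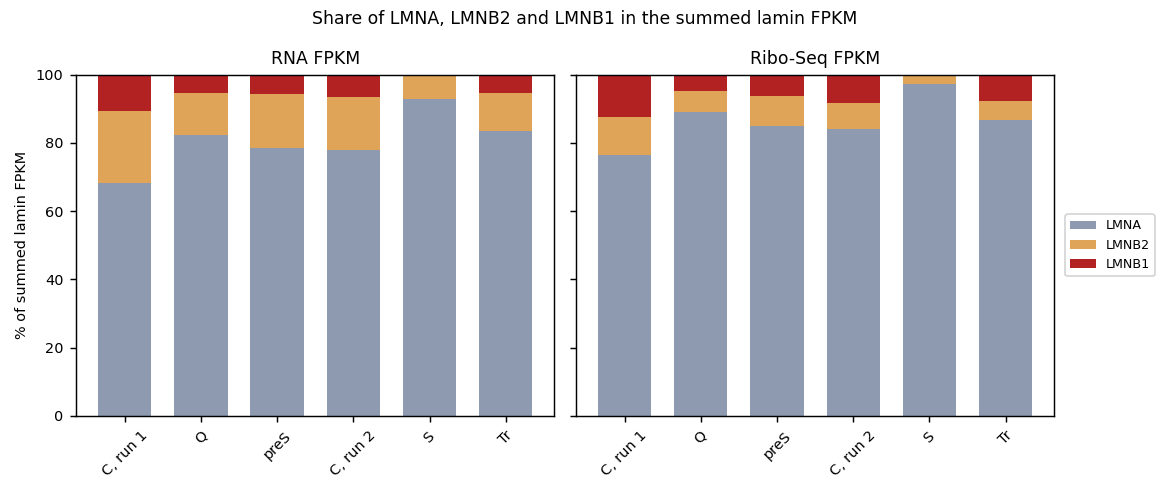
Share of each lamin gene in the summed FPKM of LMNA, LMNB2 and LMNB1 (y axis, %), by condition (x axis), in RNA on the left and Ribo-Seq on the right. The LMNA share was highest in senescent cells, 92.8% in RNA and 97.2% in Ribo-Seq.

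LBR and TMPO, which bind the lamina to chromatin, were at low to moderate levels. TMPO (ENST00000266732) RNA was 36.68 FPKM in run 1 proliferating, 21.44 in quiescent and 22.62 in pre-senescent cells, and 28.73 in run 2 proliferating, 3.75 in senescent and 22.44 in transformed cells. Its Ribo-Seq levels were 68.23, 36.63 and 26.65 FPKM in run 1 and 43.42, 8.38 and 46.4 FPKM in run 2. TMPO was called lower in senescent cells, by 7.66-fold in RNA and 5.18-fold in Ribo-Seq. In pre-senescent cells it was called lower in RNA (1.62-fold) and in Ribo-Seq (2.56-fold), and against the other control neither was called. The row holds 1 transcript, and the LAP2 isoforms were not told apart.

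LBR (ENST00000338179) had RNA levels of 19.85, 17.07 and 14.31 FPKM in run 1 (proliferating, quiescent, pre-senescent) and 13.35, 2.89 and 13.1 FPKM in run 2 (proliferating, senescent, transformed). Its Ribo-Seq levels were 35.83, 29.0 and 19.11 FPKM and 22.21, 7.53 and 25.49 FPKM. The senescent level was 4.62-fold below its control in RNA, yet this log2 difference of -2.21 stayed within the cut-off of 2.43, which is wide at low levels. The Ribo-Seq level was 2.95-fold lower and not called. Compared directly with transformed cells, the RNA was 4.53-fold lower and called. Against the control of the other run, LBR RNA was called lower in senescent cells, with a log2 difference of -2.78.

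**Figure D2:**
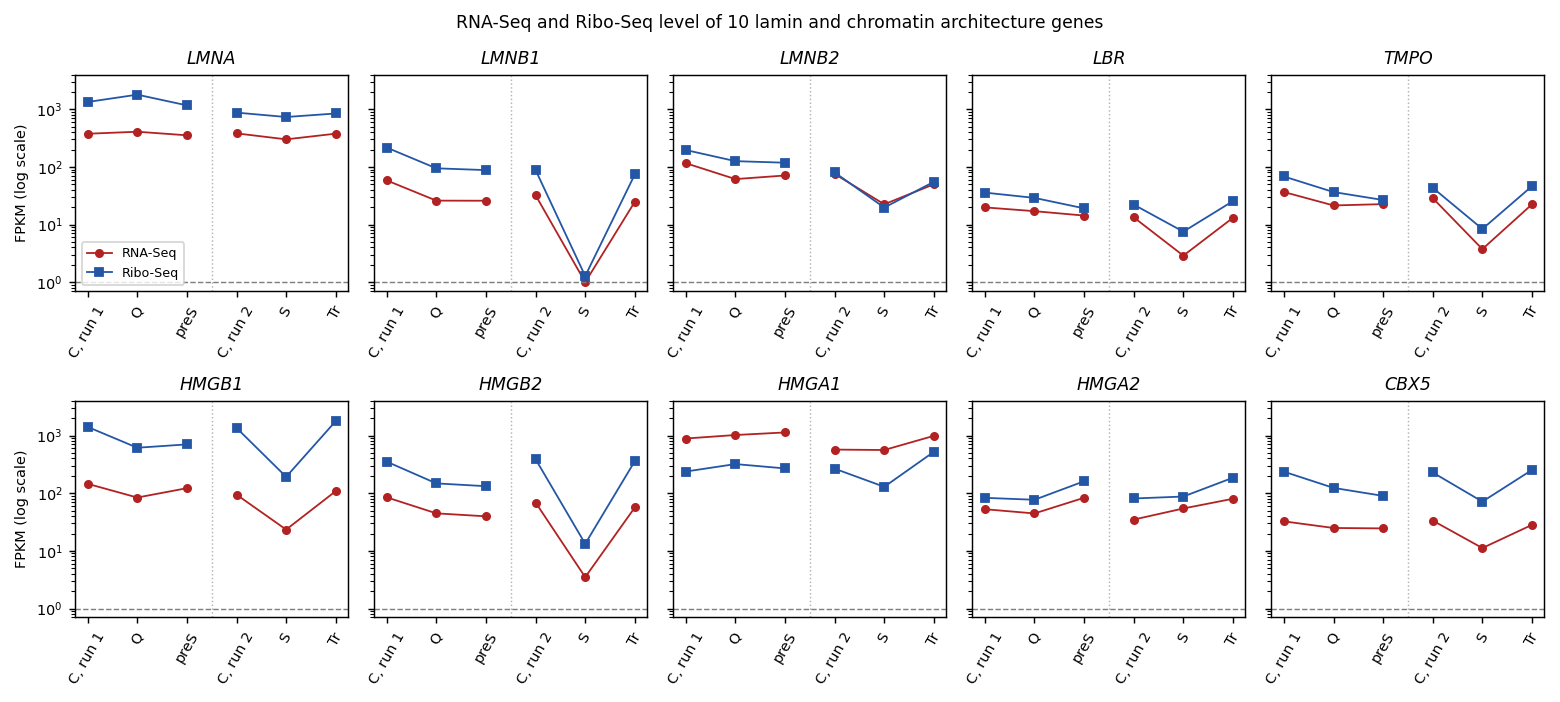
FPKM on a log scale (y axis) of each of the 10 genes in RNA-Seq (circles) and Ribo-Seq (squares), by condition (x axis), with 1 point per column. Lines join the columns of a run and the dashed line is the floor of 1. LMNB1, TMPO and HMGB2 dip in senescent cells, while LMNA stays near its control.

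HMGB2 (ENST00000296503) followed LMNB1 as the gene with the next largest decrease in senescent cells. Its RNA was 84.79 FPKM in run 1 proliferating, 44.72 in quiescent and 39.71 in pre-senescent cells, and 68.95 in run 2 proliferating, 3.50 in senescent and 56.62 in transformed cells. In Ribo-Seq HMGB2 was at 352.34, 147.92 and 132.31 FPKM in run 1 and 388.82, 13.25 and 359.97 FPKM in run 2. In senescent cells HMGB2 was 19.7-fold lower in RNA and 29.3-fold lower in Ribo-Seq, ranking 53 of 9560 and 43 of 9544 from the lowest. In pre-senescent cells it was 2.14-fold lower in RNA and 2.66-fold lower in Ribo-Seq. Its Ribo-Seq decrease at day 5 was the only pre-senescent decrease among the 10 genes that was also called against the other control, with a log2 difference of -1.56.

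HMGB1 (ENST00000405805) was the more abundant of this pair in every column. Its RNA was 145.5, 84.1 and 122.19 FPKM in run 1 (proliferating, quiescent, pre-senescent) and 94.47, 23.38 and 108.81 FPKM in run 2 (proliferating, senescent, transformed). The HMGB1 Ribo-Seq levels were 1411.73, 614.44 and 702.31 FPKM and 1356.64, 192.25 and 1783.85 FPKM. In senescent cells it was 4.04-fold lower in RNA and 7.06-fold lower in Ribo-Seq, both called. The ratio of HMGB1 to HMGB2 in RNA was 1.37 in run 2 proliferating, 6.68 in senescent and 1.92 in transformed cells. In Ribo-Seq the same ratio was 3.49, 14.5 and 4.96. HMGB1 has processed pseudogenes, and reads from a transcribed copy would be counted with the gene, since only coding transcripts served as the alignment reference.

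Neither HMGA1 nor HMGA2 was called lower than its control in any condition. HMGA1 (ENST00000395004) RNA was 888.05, 1021.32 and 1131.78 FPKM in run 1 (proliferating, quiescent, pre-senescent) and 570.74, 561.26 and 988.85 FPKM in run 2 (proliferating, senescent, transformed), at or above the 99.0 percentile in each column. HMGA1 had Ribo-Seq levels of 237.55, 319.98 and 268.96 FPKM and 266.17, 129.13 and 522.7 FPKM. Its RNA in senescent cells was 1.02-fold below the control and its Ribo-Seq level 2.06-fold below. Between senescent and transformed cells the Ribo-Seq level was 4.05-fold lower in the senescent ones, and this was called.

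HMGA2 (ENST00000536545) was the only one of the 10 genes called higher in any comparison with the same-run control. Its RNA was 52.74, 44.56 and 83.32 FPKM in run 1 (proliferating, quiescent, pre-senescent) and 34.84, 54.32 and 80.06 FPKM in run 2 (proliferating, senescent, transformed). Its Ribo-Seq levels were 83.12, 76.92 and 160.97 FPKM and 80.97, 87.52 and 185.54 FPKM. In transformed cells it was 2.30-fold higher in RNA and 2.29-fold higher in Ribo-Seq, both called. Against the run 1 control these log2 differences were 0.60 and 1.16, and neither was called. The pre-senescent RNA level was also higher than its control, by 0.66 on the log2 scale, not called with the same-run control and called with the other (1.26).

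CBX5 (ENST00000209875), the HP1 alpha gene, fell in senescent cells in RNA. Its RNA was 32.48, 24.93 and 24.52 FPKM in run 1 (proliferating, quiescent, pre-senescent) and 33.46, 11.19 and 28.25 FPKM in run 2 (proliferating, senescent, transformed). Its Ribo-Seq levels were 236.34, 123.65 and 89.79 FPKM and 228.68, 71.39 and 253.19 FPKM. The senescent RNA level was 2.99-fold lower and called, a log2 difference of -1.58 beside a cut-off of 1.44. With the control of the other run the difference was -1.54 and was not called. The senescent Ribo-Seq level was 3.20-fold lower and not called. In pre-senescent cells the Ribo-Seq level was 2.63-fold lower and called, while the RNA difference of -0.41 was not.

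Counted over the 10 genes, senescent cells had 6 called lower in RNA (LMNB1, LMNB2, TMPO, HMGB1, HMGB2 and CBX5), where 4.79% of all transcripts compared were called lower. In Ribo-Seq 5 of the 10 were called lower, the same genes without CBX5, beside 4.95% of all transcripts. None was called higher. The median log2 difference of the 10 genes was -1.88 in RNA and -1.85 in Ribo-Seq, against -0.02 and -0.12 over all transcripts. By a 2-fold rule 7 of 10 were lower in RNA and 8 of 10 in Ribo-Seq, beside 13.2% and 16.8% of all transcripts.

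In pre-senescent cells 4 of the 10 genes were called lower in RNA (LMNB1, LMNB2, TMPO and HMGB2), beside 3.49% of all transcripts, and 4 in Ribo-Seq (LMNB1, TMPO, HMGB2 and CBX5), beside 4.64%. In quiescent cells, where all 9 cycling markers were lower too, only LMNB1 RNA was called lower, beside 3.18% of all transcripts, and no gene was called in Ribo-Seq, where the background was 3.06%. By the 2-fold rule LMNB1, HMGB1 and HMGB2 were lower in quiescent Ribo-Seq, beside 8.20% of all transcripts. Of the 10 genes 8 were below 0 in quiescent RNA and 8 in Ribo-Seq. Their median log2 difference was -0.58 in RNA and -0.77 in Ribo-Seq, against -0.01 and -0.07 over all transcripts. The run 2 proliferating control was itself lower than the run 1 control over the 10 genes, with a median log2 difference of -0.59 in RNA and -0.33 in Ribo-Seq, so against the other run's control the condition and the run cannot be told apart.

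In the cells labelled transformed none of the 10 genes was called lower (background 3.15% and 3.82% in RNA and Ribo-Seq), and HMGA2 alone was called higher, beside 2.96% of all transcripts called higher in RNA and 2.63% in Ribo-Seq. The median log2 difference was -0.14 in RNA and 0.12 in Ribo-Seq. Against the run 1 control, LMNB1 (log2 differences of -1.23 and -1.54) and LMNB2 (-1.21 and -1.83) were called lower in RNA and Ribo-Seq. Setting senescent directly against transformed cells, both with RASG12V and of the same run, 5 genes were lower in RNA (LMNB1, LBR, TMPO, HMGB1 and HMGB2), beside 4.74% of all transcripts. In Ribo-Seq 6 were lower (LMNB1, TMPO, HMGB1, HMGB2, HMGA1 and CBX5), beside 4.36%. The Ribo-Seq level of LMNB1 was 57.9-fold lower in senescent than in transformed cells, that of HMGB2 27.2-fold, and that of HMGB1 9.28-fold. These cells also differ in knockdowns, SV40 small T and the RAS vector, and the part of each was not tested.

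**Figure D3:**
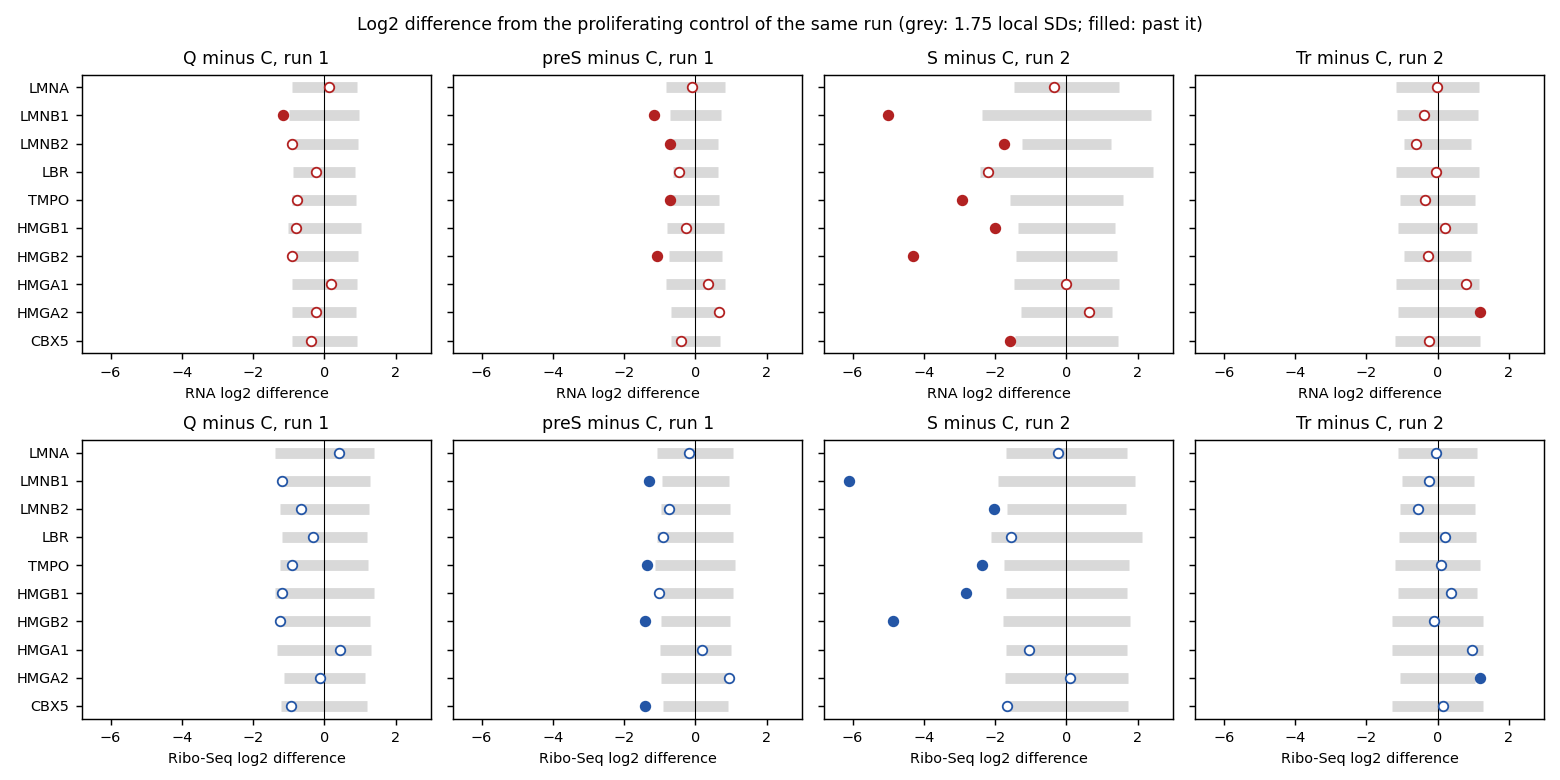
Log2 difference in FPKM (x axis) of each gene (y axis) from the proliferating control of its run, in RNA (upper row) and Ribo-Seq (lower row), for the 4 conditions. Grey bars span the cut-off of 7/4 local SDs and filled points lie past them. In senescent cells 6 points in RNA and 5 in Ribo-Seq lie past the bar on the lower side, and in transformed cells only HMGA2 does, on the higher side.

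The genes lower in senescent RNA were lower in Ribo-Seq as well, with CBX5 not called there, and translational efficiency (TE, log2 of the Ribo-Seq over the RNA level) was rarely called. Among the 4 conditions 1 TE difference was called, that of CBX5 in pre-senescent cells, where the Ribo-Seq to RNA ratio was 3.66 against 7.28 in the control. The background of lower TE calls there was 5.65%, and the CBX5 difference of -0.99 stood close to its cut-off of 0.92; against the other control (-0.90) it was not called, and HMGB1 (-1.32) was. In senescent cells none of 9 genes was called in TE, beside 4.74% of all transcripts called lower, and LMNB1 had no TE because its RNA was at the floor. HMGA1 had a Ribo-Seq to RNA ratio of 0.230 in senescent and 0.466 in proliferating cells, a log2 difference of -1.02 within the cut-off of 1.24. None of the 10 was called in TE in quiescent or transformed cells, where 5.24% and 5.43% of all transcripts were called lower. In transformed cells 8 of the 10 TE differences were above 0, with a median of 0.18. The share of all transcripts called higher in TE is not given here. Among so few genes, no call or 1 call is near the shares called lower.

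**Figure D4:**
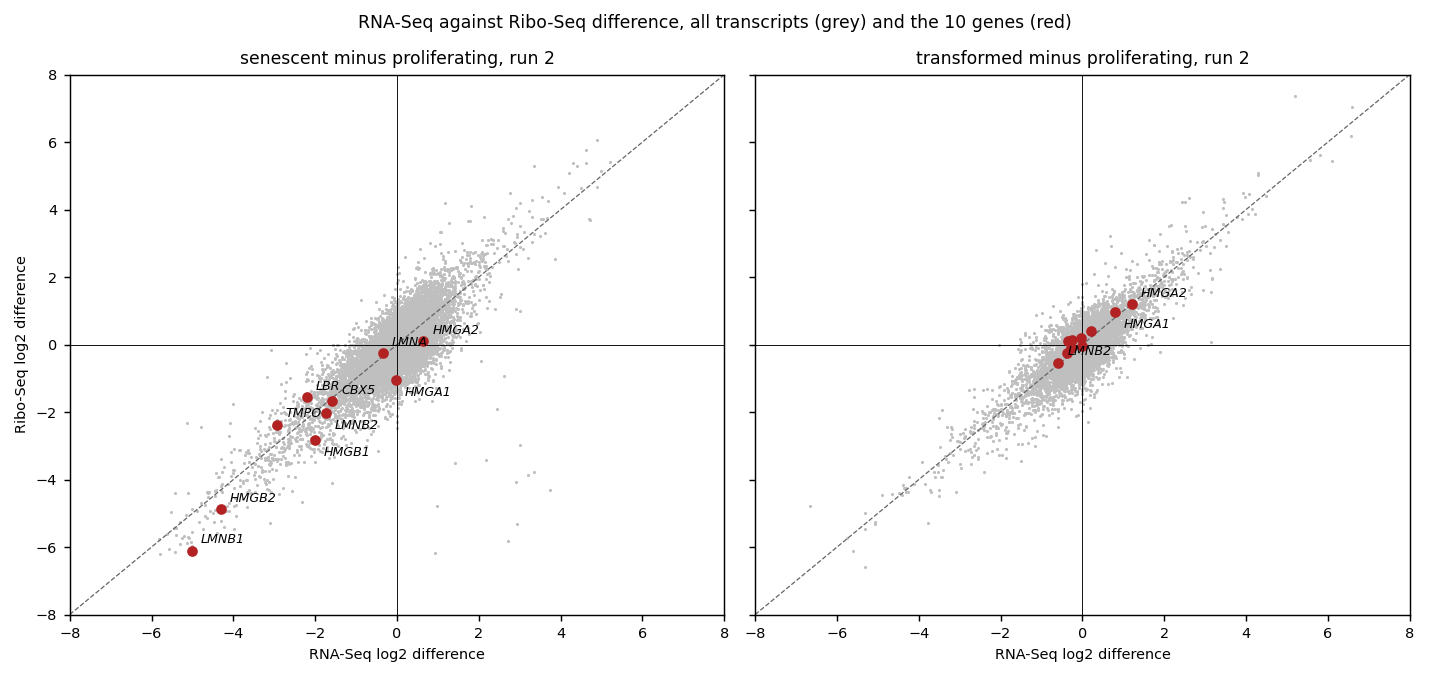
Log2 difference in Ribo-Seq (y axis) against that in RNA-Seq (x axis) for all transcripts (grey) and the 10 genes (red), in senescent cells on the left and transformed cells on the right. The dashed line marks equal differences. LMNB1 and HMGB2 lie at the lower left in senescent cells, at -5.01 and -6.11 and at -4.30 and -4.88.

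The ratio of Ribo-Seq to RNA was spread more widely between the genes than between the conditions of any 1 gene. It is of 2 levels per length, but RNA was counted over the whole transcript and Ribo-Seq over the coding region, and use of a shorter transcript than the one in the table would alter it. HMGB1 had a ratio of 5.75 to 16.4, between the 98.6 and 99.7 percentile of all transcripts. CBX5 followed with 3.66 to 8.96. HMGA1 stood at the other end with 0.230 to 0.529, between the 1.85 and 12.6 percentile, while HMGA2 had 1.58 to 2.32. The related HMGA genes thus stood far apart in this ratio in every condition.

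The transcripts nearest to LMNB1 in pattern were NUSAP1, CDK1 and CEP55. Nearness was the root mean square distance over the 8 log2 differences of the 4 conditions in RNA and Ribo-Seq, taken over 7822 transcripts with a mean RNA level of 5 FPKM or more. The distances were 0.25, 0.26 and 0.31, where the median transcript stood at 2.94. NUSAP1, a spindle protein gene, differed by -5.58 in RNA and -6.05 in Ribo-Seq in senescent cells, and CDK1, the mitotic kinase gene, by -5.13 and -5.87. LMNB1 and these 3 transcripts were at the floor in senescent RNA, and the 3 nearest to HMGB2 were at it in both layers, so these RNA differences and that of NUSAP1 in Ribo-Seq are bounds, and the distances take floor values as measured. HMGB2 was nearest to HMMR, DLGAP5 and NDC80 (0.25, 0.27 and 0.27), and LMNB2 to NR1D2, CKAP2 and PCNA (0.22, 0.23 and 0.25). For TMPO they were RBL1, PRPS2 and MCM5 (0.25, 0.26 and 0.27), for HMGB1 HMGN2, CDCA7L and PTTG1 (0.24, 0.25 and 0.26), and for CBX5 ANP32E, EXOSC8 and TSEN15 (0.12, 0.23 and 0.23). In senescent cells the decreases of these genes went with those of the cycling markers given above. In quiescent RNA, where all 9 cycling markers were called lower, only LMNB1 of these genes was. The part of fewer cycling cells in the decreases was not tested.

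Other genes of the nuclear envelope and of chromatin structure differed by group in senescent RNA, where 4.79% of all transcripts were called lower. Of 11 genes of the inner nuclear membrane and of the LINC complex, which joins it to the cytoskeleton, none was called and the median log2 difference was -0.23. BANF1, the most abundant of them, was at 89.92 FPKM in proliferating and 63.72 FPKM in senescent cells. Its Ribo-Seq level was 458.74 and 150.37 FPKM, a log2 difference of -1.61 that was not called. Against transformed cells BANF1 was called lower in Ribo-Seq. None of 6 lamin-processing genes was called (median -0.06), nor any of 12 genes of HP1 and heterochromatin (median -0.54). By contrast, 7 of 8 condensin genes, which compact chromosomes in mitosis, were called lower, with a median of -3.49. NCAPG was at 21.82 FPKM in proliferating cells and at the floor in senescent ones, and SMC4 was at 42.05 and 3.19 FPKM. Of 10 cohesin and CTCF genes 2 were called lower, SMC1A (19.19 and 5.41 FPKM) and RAD21 (71.33 and 27.17 FPKM). Of 10 other high-mobility-group genes 2 were called lower, HMGN2 (274.89 and 67.35 FPKM) and SSRP1 (79.82 and 28.68 FPKM), which were also called lower in run 2 than in run 1 proliferating cells.

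In quiescent cells, with 3.18% of all transcripts called lower in RNA, 5 of 8 condensin genes were lower, 1 of 12 genes of HP1 and heterochromatin, SUV39H1, was lower, and TM7SF2, a sterol reductase gene of the inner nuclear membrane, was higher. In pre-senescent cells, with 3.49% called lower, these were SUN2 and SYNE2 of the LINC complex (2 of 10 tested), HMG20B (1 of 10) and the condensin gene NCAPD2 (1 of 8). NCAPD2, also among the 5 lower in quiescent cells, was itself called lower in run 2 than in run 1 proliferating cells. In transformed RNA no gene of these 6 lists was called in either direction, beside 3.15% of all transcripts called lower and 2.96% higher. In Ribo-Seq HMG20B was called lower. In TE TOR1AIP1 (1 of 10 tested in its list), ATRX (1 of 12), STAG2, NIPBL and PDS5B (3 of 10) and SMC2 (1 of 8) were called higher. The share of all transcripts called higher in TE is not given here, so these counts have no background. The lists held TE calls in the other conditions too. These were LEMD2 higher in quiescent cells, ASF1A lower and HMGN5 higher in pre-senescent cells, and HMGN1 and HMGN4 lower in senescent cells.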

How the data were processed

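RNA-Seq and Ribo-Seq levels of BJ cells were analysed from 1 deposited table of 12 FPKM columns, made from 17 samples. The authors aligned reads with Bowtie to 1 coding transcript per gene (Ensembl release 65; per the labels, hg19), kept uniquely mapped reads, counted RNA-Seq over the transcript and Ribo-Seq over the coding region, and set FPKM below 1 to 1. The submitters' processing notes give no Bowtie version. Run 1 held C (C1 and C2 pooled), Q and preS; run 2 held C3, S and Tr. How libraries were pooled is not given in the sources used here.

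Differences of log2 FPKM were computed from the deposited values between columns of the same run (Python 3.11.15, numpy 2.4.6, pandas 2.3.3) and called past 7/4 local SDs, taken over the transcript and 500 neighbours in level. The local SD was a root mean square with no mean subtracted, and for TE the neighbours were those in Ribo-Seq level. At least 1 compared value had to be above the floor, and for TE all 4. With 1 column per group no test was possible. The alternatives were a 2-fold rule, 200 neighbours, median centring, log2(FPKM + 1), a minimum of 5 FPKM, no filter and other controls. The procedure was tested on simulated data. Named genes were the 10 genes, and from each context list the 3 called genes with the largest RNA difference and the most abundant one; a few others are named as the members of a small count, chosen after their values were seen. The genes and lists were chosen with earlier results of these data known. The level of 1 other knocked-down gene is not reported here.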

Additional observations from a re-analysis of the deposited data

How the results depend on the processing

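Median centring, log2(FPKM + 1) and a minimum of 5 FPKM moved no count of called genes by over 1.5 times, and no called difference changed sign under any setting. With the other run's control the count of called genes became 0 for quiescent RNA, 1 for pre-senescent RNA (HMGA2 higher, with none of the 4 decreases called), 1 for pre-senescent Ribo-Seq, 2 for transformed RNA and 2 for transformed Ribo-Seq (LMNB1 and LMNB2 lower in both), and 1 for transformed TE. With the mean of both controls it became 0 for quiescent RNA, 1 for quiescent Ribo-Seq, 2 for pre-senescent RNA (HMGB2 lower, HMGA2 higher), 2 for pre-senescent Ribo-Seq, 0 for pre-senescent TE, 2 for transformed RNA and 2 for transformed Ribo-Seq (LMNB2 lower and HMGA2 higher in both). By the 2-fold rule it became 3 for quiescent Ribo-Seq, 2 for pre-senescent RNA, 0 for pre-senescent TE, 8 for senescent Ribo-Seq and 1 for senescent TE. With 200 neighbours in the local SD it became 3 for quiescent RNA, 1 for quiescent Ribo-Seq, 0 for pre-senescent TE and 0 for transformed RNA. Without the filter it became 1 for senescent TE. The cause was not tested. With the other control the pre-senescent TE call was HMGB1 in place of CBX5.

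Of 23 called differences in the 4 conditions, 11 were also called with the other run's control, and among the senescent ones CBX5 RNA alone was not. No paired analysis was possible because the columns carry no replicate numbers and each condition has 1 column per layer; for the same reason no replicate was left out. Values near the floor, such as LMNB1 in senescent cells, rest on an unknown number of reads.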
